A study of Mus musculus with 12 samples.

Results

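The genes examined here were the carbonyl reductases Cbr3 and Cbr1 and 8 genes of the antioxidant response controlled by Nrf2: Nfe2l2, which encodes Nrf2 itself, Nqo1, Hmox1, Gclc, Gclm, Txnrd1, Srxn1 and Gsr. They are 10 of 29848 genes tested on one-colour whole-genome arrays of mouse E14 embryonic stem (ES) cells. Of the 29848, 19400 had a gene symbol. The rest were known only by the array's own target names, and every share of all genes below includes them. Cbr3 was chosen because its signal fell strongly in cells depleted of Chd4; the other 9 were chosen for what they do, or for lying beside Cbr3 on the chromosome, to ask whether they follow it. The Cbr3 values in Chd4 KD are therefore a description and were given no test.

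Cells were transfected with esiRNAs, pools of short interfering RNAs made from a long double-stranded RNA, and RNA was collected 48 hr later. There were 6 groups with 2 arrays each, 12 in all. EGFP KD, directed against a gene that the cells lack, was the control. Dnmt1 KD targeted the maintenance DNA methyltransferase, Tet1 KD an enzyme that oxidises 5-methylcytosine, Mbd3 KD and Mbd2 KD the methyl-CpG-binding-domain subunits of alternative forms of the NuRD complex, and Chd4 KD the remodelling ATPase found in both forms. All groups were the same male line, grown without feeder cells in serum and LIF, and each knockdown was a transient depletion of a whole dish. Since only bulk RNA was measured, fewer cells of a type and less RNA per cell cannot be told apart.

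Carbonyl reductases use NADPH to reduce ketones, aldehydes and quinones, and Cbr1 and Cbr3 are closely related neighbours with different substrate preferences. Nrf2 is a transcription factor that Keap1 holds at a low level by directing it to degradation. Under oxidative or electrophilic stress Nrf2 escapes Keap1, pairs with small Maf proteins and binds antioxidant response elements, which raises the transcription of enzymes that make glutathione, keep thioredoxin reduced, reduce quinones and break down haem. Nqo1 and Cbr3 are well-known Nrf2-responsive genes, and the NuRD complex is known both to silence and to fine-tune genes in ES cells.

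Every level below is a log2 signal relative to the 75th percentile of its own array, so that 0 equals that percentile. Differences between groups are log2 differences with the standard error (SE) of a limma fit over all 12 arrays, and p-values were adjusted over all genes by the Benjamini-Hochberg method; a gene is said to have risen or fallen if its adjusted p was under 0.05. Levels of different members were not compared with each other. Probe signals were set side by side to choose a gene's brighter probe, to order listed genes and to sum cell type markers. The 10 genes had 12 probes, 2 each for Hmox1 and Gsr and 1 for each of the rest. All 12 were well above background on all 12 arrays and none was saturated. Of the 2 probes, the brighter stood for the gene.

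The targeted mRNA was lower on both arrays of its group for Chd4 KD (log2 differences from the EGFP KD mean of -1.55 and -1.01), Mbd3 KD (-3.07 and -2.85) and Dnmt1 KD (-1.64 and -2.35). The labels of Tet1 KD and Mbd2 KD were not borne out in this way. Probe A_55_P2122997 of Tet1 was low on replicate 2 of Tet1 KD (-1.81) and replicate 1 of Mbd2 KD (-1.79), but not on replicate 1 of Tet1 KD (-0.02), whereas probe A_66_P133043 of Mbd2 was low on replicate 1 of Tet1 KD (-1.75) and replicate 2 of Mbd2 KD (-1.77). The other, brighter Mbd2 probe, A_55_P2036526, did not show this pattern: it differed by -0.20 and -0.61 on replicates 1 and 2 of Tet1 KD and by -0.08 and -0.07 on those of Mbd2 KD. Values of these groups are therefore given by array as labelled, and comparisons of other groups are also given without the 4 arrays where that mattered. The cells carried high signals of the ES cell markers Pou5f1, Zfp42, Esrrb and Dppa5a (saturated on 11 or 12 of the 12 arrays), whereas the probe for Nanog lay near the bottom of the scale (-4.86 to -3.86) on all arrays. The summed linear signal of 5 trophectoderm markers was 4.42 to 5.27 in EGFP KD, 7.62 to 8.72 in Mbd3 KD and 9.23 to 9.24 in Chd4 KD, most of it from Tfap2c, with Cdx2 and Elf5 near the bottom of the scale. That of 5 fibroblast markers was 5.06 to 5.52, 9.42 to 9.84 and 9.31 to 12.3, most of it from Thy1. The fibroblast sum was also higher in Dnmt1 KD (7.11 to 7.21) and on the arrays labelled Tet1 KD (6.14 to 6.41). For trophectoderm these groups gave 4.42 to 4.47 and 5.42 to 5.69. The sum of 5 primitive endoderm markers overlapped, at 0.63 to 1.05 in EGFP KD, 0.96 to 1.01 in Mbd3 KD and 0.92 to 1.05 in Chd4 KD. The part of these shifts in the results below was not tested.

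The promoters of Cbr3, Cbr1 and Nqo1 are shown because Cbr3 and Nqo1 carried the largest falls and Cbr1 is the neighbour of Cbr3. RefSeq places Cbr1 and Cbr3 on the same strand of mouse chromosome 16, separated by a pseudogene. Each sequence is the 250 bases just upstream of the annotated start on the gene's own strand, from RefSeq on GRCm38.p6, and capitals mark CG dinucleotides, the sites at which DNA is methylated in mammals. Cbr3 lies at chr16:93682969-93683218 (plus strand), Cbr1 at chr16:93607587-93607836 (plus strand) and Nqo1 at chr8:107403206-107403455 (minus strand).
Cbr3: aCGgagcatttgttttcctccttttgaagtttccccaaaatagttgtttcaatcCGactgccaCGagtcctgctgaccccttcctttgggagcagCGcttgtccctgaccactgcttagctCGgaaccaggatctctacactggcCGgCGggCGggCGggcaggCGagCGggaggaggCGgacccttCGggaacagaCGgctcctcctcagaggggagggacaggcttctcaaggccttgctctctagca
Cbr1: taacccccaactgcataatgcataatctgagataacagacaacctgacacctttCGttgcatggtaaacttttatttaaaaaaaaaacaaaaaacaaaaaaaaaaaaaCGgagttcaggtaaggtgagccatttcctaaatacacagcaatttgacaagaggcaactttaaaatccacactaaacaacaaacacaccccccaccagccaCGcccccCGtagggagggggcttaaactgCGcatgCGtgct
Nqo1: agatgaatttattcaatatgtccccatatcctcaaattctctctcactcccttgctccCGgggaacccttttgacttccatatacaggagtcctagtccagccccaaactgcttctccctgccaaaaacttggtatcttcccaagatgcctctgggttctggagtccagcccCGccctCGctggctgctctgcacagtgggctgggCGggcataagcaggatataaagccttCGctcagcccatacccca

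These bases hold 14 CG dinucleotides in Cbr3, 6 in Cbr1 and 5 in Nqo1. Over 32851 RefSeq windows the median was 6, and 72.7% of windows held no more than Cbr3. The antioxidant response element core, searched as TGACNNNGC on both strands from 250 bases before to 50 bases after the start, was found in 12.4% of all windows. RefSeq windows were given for 7 of the 10 genes, and none of the windows of Cbr3, Cbr1 or Nqo1 held the core. It was found once each for Nfe2l2 (TGACTCCGC), Gclm (TGACGGTGC), Srxn1 (TGACCTAGC) and 1 of the 3 Txnrd1 windows (TGACAAAGC), on the strand of the gene in Nfe2l2 and on the opposite strand in the others. These matches describe letters in a short window only.

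Cbr3 gave 4.44 and 4.25 in EGFP KD (replicates 1 and 2), 4.23 and 4.19 in Dnmt1 KD, 2.38 and 2.29 in Mbd3 KD, and 1.15 and 0.88 in Chd4 KD. The arrays labelled Tet1 KD gave 3.87 and 4.10, and those labelled Mbd2 KD gave 4.01 and 3.86. Both Chd4 KD arrays thus lay below both Mbd3 KD arrays, and both of these lay below the other 8. By mean of the groups as labelled, the order from high to low was EGFP KD, Dnmt1 KD, Tet1 KD, Mbd2 KD, Mbd3 KD and Chd4 KD. The first 2 differed by -0.13 (SE 0.13, limma adjusted p = 0.94), and the arrays of Tet1 KD and Mbd2 KD overlapped.

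In Chd4 KD, Cbr3 was at 1.01 ± 0.19 (SD, n = 2) against 4.34 ± 0.13 (SD, n = 2) in EGFP KD, a log2 difference of -3.33 (SE 0.13), or 10.0-fold lower. This is the value by which the gene was chosen. By size of the difference it ranked 18th from the lowest of all genes tested. The Chd4 KD array that shared a slide with an EGFP KD array differed from it by -3.10.

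Mbd3 KD lowered Cbr3 as well. Its mean was 2.33 ± 0.06 (SD, n = 2), a log2 difference from EGFP KD of -2.01 (SE 0.13, limma adjusted p = 0.00519), or 4.03-fold lower, the 7th lowest difference of all genes. This comparison shares the EGFP KD arrays with the one that chose the gene, so Mbd3 KD was also set against Dnmt1 KD, which shares a slide with it in both replicates. There the difference was -1.88 (SE 0.13, adjusted p = 0.00624), with -1.86 within one slide and -1.90 within the other. Without the arrays labelled Tet1 KD and Mbd2 KD the differences were the same but the adjusted p rose to 0.0589 against EGFP KD and 0.0688 against Dnmt1 KD. After normexp background correction the difference from EGFP KD was -1.60 (adjusted p = 0.127). Chd4 KD lay a further 1.32 below Mbd3 KD, with a log2 difference of -1.32 between these groups (SE 0.13, not tested because it uses the arrays that chose the gene) and -1.41 on the slide they shared.

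On the arrays labelled Tet1 KD, Cbr3 differed from the EGFP KD mean by -0.47 and -0.25, and on those labelled Mbd2 KD by -0.33 and -0.48. Neither group mean passed the test (differences of -0.36 and -0.41, limma adjusted p = 1 for both, unadjusted p = 0.0293 and 0.018). These means pool arrays as labelled, and the targeted mRNA was not lower on both arrays of either group. They cannot be read as the effect of either depletion. All 4 arrays lay below both EGFP KD arrays. These comparisons share the EGFP KD arrays with the one that chose the gene. The unadjusted p-values and the order of the arrays are therefore a description only.

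**Figure D1:**
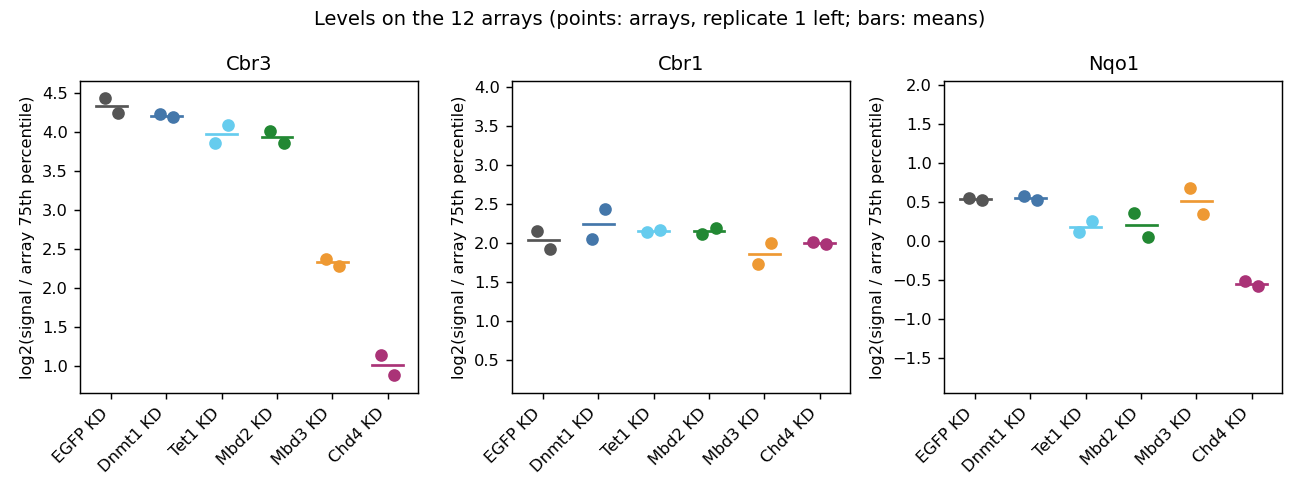
Log2 signal of Cbr3, Cbr1 and Nqo1 relative to the 75th percentile of the array (y axes, each spanning the same range) in the 6 groups as labelled (x axes), with a point for each array and a bar for the mean of 2. Cbr3 drops in Mbd3 KD (2.38 and 2.29) and further in Chd4 KD (1.15 and 0.88), Cbr1 stays between 1.73 and 2.44, and Nqo1 drops in Chd4 KD (-0.51 and -0.58).

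Cbr1 did not show the large fall of its neighbour. Its signal was 2.16 and 1.93 in EGFP KD, 2.01 and 1.99 in Chd4 KD, and 1.73 and 2.00 in Mbd3 KD. It was 2.05 and 2.44 in Dnmt1 KD, 2.15 and 2.16 on the arrays labelled Tet1 KD, and 2.12 and 2.20 on those labelled Mbd2 KD. Both Chd4 KD values lay between the EGFP KD values. The difference in Chd4 KD was -0.04 (SE 0.16, 95% interval -0.41 to 0.32, limma adjusted p = 0.994), and in Mbd3 KD -0.18 (95% interval -0.54 to 0.19, adjusted p = 0.823). Set against Dnmt1 KD, the Mbd3 KD difference was -0.38 (95% interval -0.74 to -0.01, limma unadjusted p = 0.0451, adjusted p = 0.599). It was -0.32 within one slide and -0.43 within the other, so a modest fall in Mbd3 KD stays possible. The interval in Chd4 KD leaves room for a modest change of either sign, and the sign turned under other scalings (0.07 after normexp background correction and 0.12 after quantile normalization).

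Nqo1, which encodes an NAD(P)H-dependent quinone reductase, was the member besides Cbr3 that fell in Chd4 KD. It gave 0.55 and 0.52 in EGFP KD, 0.58 and 0.53 in Dnmt1 KD, 0.69 and 0.35 in Mbd3 KD, and -0.51 and -0.58 in Chd4 KD. It gave 0.12 and 0.26 on the arrays labelled Tet1 KD, and 0.37 and 0.06 on those labelled Mbd2 KD. The Chd4 KD arrays lay below the other 10. The log2 difference from EGFP KD was -1.08 (SE 0.14, limma adjusted p = 0.0103), or 2.11-fold lower, and it was -1.03 between the pair of arrays on a shared slide. The call rested on the replicates: leaving out either EGFP KD or either Chd4 KD array kept the difference between -1.11 and -1.05 but moved the adjusted p to 0.0567 to 0.0791. After normexp background correction it was -0.80 (adjusted p = 0.143).

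In Mbd3 KD, Nqo1 differed from EGFP KD by only -0.02 (SE 0.14, 95% interval -0.36 to 0.32, adjusted p = 1). The difference between Chd4 KD and Mbd3 KD was itself past the threshold, at -1.06 (SE 0.14, limma adjusted p = 0.0208), and it was -0.93 on the slide that held both. Without the 4 arrays labelled Tet1 KD and Mbd2 KD its adjusted p was 0.0652, whereas that of the fall against EGFP KD was 0.0363.

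Of the 9 genes besides Cbr3, Nqo1 was therefore the 1 that passed the test in Chd4 KD, where 3.2% of all genes tested did so (585 higher and 369 lower). All 9 differences were below 0, with a median of -0.33, while 48.6% of all genes lay below 0 and their median was 0.00. The 9 signs do not hold under every scaling: after quantile normalization Cbr1, Gclc, Txnrd1 and Gsr turned to between 0.05 and 0.12. They also hang on single arrays. Without EGFP KD replicate 1, Cbr1 and Gclc turned to 0.07 and 0.02. Without Chd4 KD replicate 1, Gclc and Txnrd1 turned to 0.25 and 0.03.

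**Figure D2:**
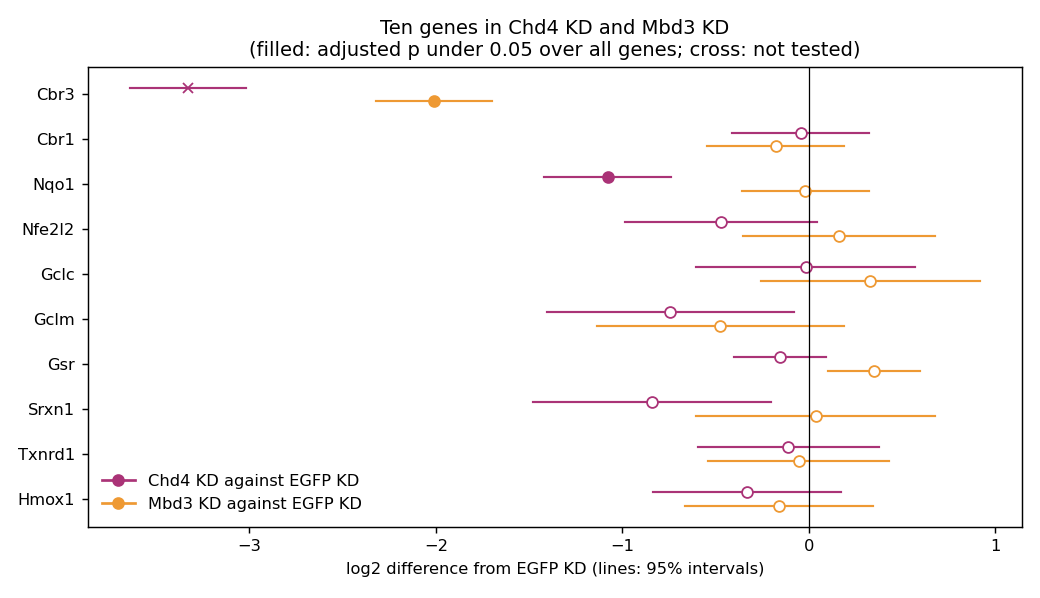
Log2 difference from EGFP KD (x axis) of the 10 genes (y axis) in Chd4 KD and Mbd3 KD, with 95% intervals as lines; filled points had an adjusted p under 0.05, and the cross marks Cbr3 in Chd4 KD, which chose the gene and was not tested. Cbr3 lies at -3.33 and -2.01, Nqo1 at -1.08 (Chd4 KD) and -0.02 (Mbd3 KD), and the intervals of Cbr1 span 0 in both.

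Nfe2l2, the gene of Nrf2, gave 1.59 and 1.19 in EGFP KD and 0.83 and 1.02 in Chd4 KD, groups that did not overlap but differed by no more than the fit's error allowed (-0.47, SE 0.22, limma adjusted p = 0.457). Its values in Mbd3 KD were 1.33 and 1.78, on either side of an EGFP KD array (difference 0.16, adjusted p = 0.885).

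Glutathione is made in 2 steps, of which the first is carried out by glutamate-cysteine ligase, an enzyme with the catalytic subunit Gclc and the modifier subunit Gclm. Gclm gave 0.80 and 0.10 in EGFP KD and -0.10 and -0.48 in Chd4 KD, a difference of -0.74 (SE 0.28, adjusted p = 0.305). The EGFP KD arrays differed from each other by nearly as much, and on the slide that held both groups the difference was -0.21. Gclc gave 0.67 and 0.60 in EGFP KD against 0.35 and 0.88 in Chd4 KD, with the Chd4 KD arrays on either side of the controls (difference -0.02, SE 0.25, adjusted p = 1).

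Gsr encodes glutathione reductase, which turns oxidised glutathione back to its reduced form. It gave 3.06 and 3.08 in EGFP KD, 2.89 and 2.94 in Chd4 KD, and 3.46 and 3.38 in Mbd3 KD, so that the Chd4 KD arrays lay below and the Mbd3 KD arrays above both controls. None of the differences passed the test: -0.15 in Chd4 KD (limma adjusted p = 0.716), 0.35 in Mbd3 KD (adjusted p = 0.271), and -0.50 between Chd4 KD and Mbd3 KD (SE 0.10, adjusted p = 0.0846). Its dimmer probe gave -0.38, 0.38 and -0.76 for the same comparisons.

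Srxn1, which encodes sulfiredoxin and restores overoxidised peroxiredoxins, gave 2.89 and 2.57 in EGFP KD and 2.11 and 1.67 in Chd4 KD. Both Chd4 KD arrays lay below both controls, and the difference of -0.84 (SE 0.27) had an unadjusted p of 0.0171 and an adjusted p of 0.21. On the shared slide it was -0.46. Mbd3 KD gave 2.86 and 2.67 (difference 0.04, adjusted p = 1).

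Txnrd1, the cytosolic thioredoxin reductase, gave 3.41 and 3.29 in EGFP KD, 3.10 and 3.38 in Chd4 KD, and 3.35 and 3.25 in Mbd3 KD, with overlapping groups (differences of -0.11 and -0.05). Hmox1, the inducible haem oxygenase, gave 2.68 and 2.52 in EGFP KD and 2.41 and 2.13 in Chd4 KD (difference -0.33, SE 0.21, limma adjusted p = 0.686). Its dimmer probe differed by -0.14 in Chd4 KD. The lowest Hmox1 value on any array was 1.99, on Dnmt1 KD replicate 2, while Dnmt1 KD replicate 1 stood at 2.60.

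In Mbd3 KD, Cbr3 passed the test, in a comparison that shares its EGFP KD arrays with the one that chose the gene. Of the other 9 genes 0 passed, where 0.764% of all genes did (143 higher and 85 lower). Of the 10 differences, 6 were below 0 and the median was -0.04, near the -0.03 of all genes. Against Dnmt1 KD, Cbr3 was again called and 0 of the other 9 were, where 0.66% of all genes were. Between Chd4 KD and Mbd3 KD, Nqo1 was the 1 of the 9 others called, where 1.45% of all genes were; 8 of these 9 differences were below 0, with a median of -0.35 against 0.06 for all genes.

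None of the 10 genes passed the test in Dnmt1 KD, or in Tet1 KD or Mbd2 KD as labelled. In each of these comparisons limma called 0% of all genes (0 of 29848, with 1413, 852 and 622 at an unadjusted p under 0.05). At that unadjusted level the members numbered 0 in Dnmt1 KD, 2 in Tet1 KD (Cbr3 and Nqo1) and 1 in Mbd2 KD (Cbr3). For Cbr3 each of these comparisons shares its EGFP KD arrays with the one that chose the gene. Nqo1 differed from the EGFP KD mean by -0.42 and -0.28 on the arrays labelled Tet1 KD, and by -0.17 and -0.48 on those labelled Mbd2 KD, with all 4 below both controls.

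**Figure D3:**
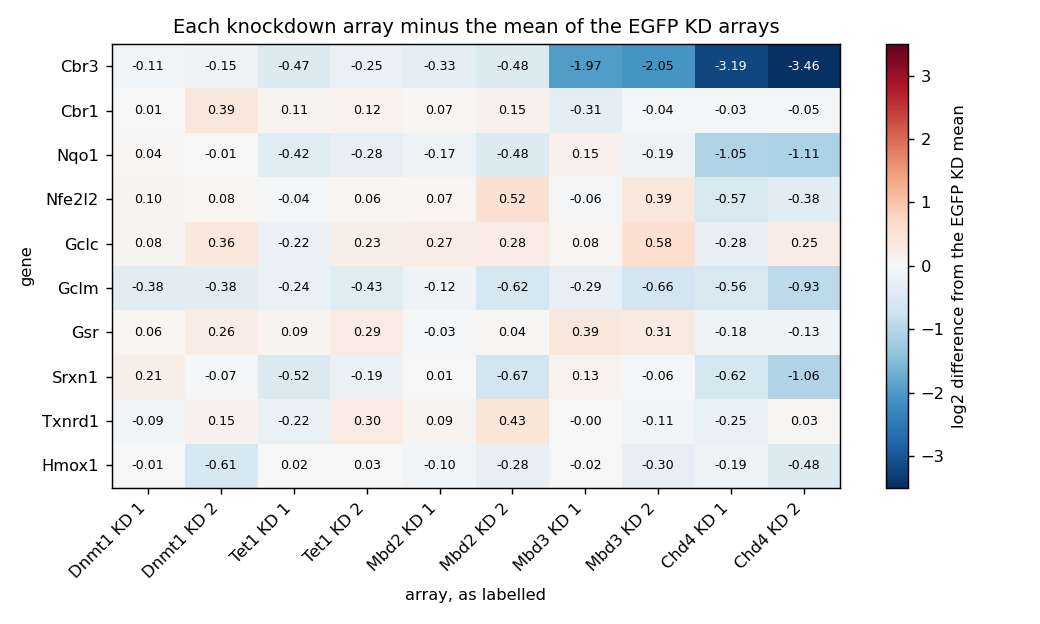
Log2 difference of each of the 10 knockdown arrays, as labelled (x axis), from the mean of the EGFP KD arrays for the 10 genes (y axis), with the value printed in each cell and blue for lower. The Cbr3 row holds the extremes (-1.97 and -2.05 in Mbd3 KD, -3.19 and -3.46 in Chd4 KD), Nqo1 is at -1.05 and -1.11 in Chd4 KD, and Cbr1 stays between -0.31 and 0.39.

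Other genes of the pathway were taken from a list of 63 genes in 7 roles, of which 60 could be tested. In Chd4 KD, 6 of the 60 passed the test, 4 higher and 2 lower, with a median difference of -0.06, where 3.2% of all genes tested were called. Of the 60 genes, 13 had a saturated probe on at least 1 array, and none of those called in any comparison did. The count fell to 1 without either Chd4 KD array, to 3 and 2 without EGFP KD replicates 1 and 2, and to 2 after normexp background correction. The 2 that fell were Nqo2, the relative of Nqo1 that uses dihydronicotinamide riboside (-1.19, SE 0.16, limma adjusted p = 0.0107), and Gsta4, a glutathione S-transferase for lipid aldehydes (-1.02, SE 0.15, adjusted p = 0.0169). Nqo2 gave 1.62 and 1.87 in EGFP KD against 0.53 and 0.58 in Chd4 KD, and Gsta4 gave 3.24 and 3.19 against 2.19 and 2.20. Both quinone reductases thus fell in Chd4 KD. In Mbd3 KD, Nqo2 gave 0.91 and 1.13, below both controls, but was not called. Gsta4 gave 2.96 and 3.22 there and was not called either.

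The 4 that rose were enzymes that reduce peroxides or carbonyls, remove glutathione from proteins or open epoxides. Gpx2, a glutathione peroxidase, rose from 2.68 and 3.17 in EGFP KD to 4.34 and 4.18 in Chd4 KD (1.34, SE 0.19, limma adjusted p = 0.0123). Ephx1, the microsomal epoxide hydrolase, rose from 0.45 and 0.68 to 2.04 and 1.98 (1.44, SE 0.15, adjusted p = 0.00484). Glrx, which removes glutathione from proteins, rose from 0.05 and -0.05 to 0.67 and 0.86 (0.77, SE 0.12, adjusted p = 0.0204). Akr1c13, an aldo-keto reductase, rose from -1.60 and -1.83 to 0.11 and 0.00 (1.77, SE 0.22, adjusted p = 0.00805). Akr1c13 belongs to a cluster of similar genes, and whether its probe also reads its relatives was not tested. In Mbd3 KD, Ephx1 gave 1.42 and 1.32, above both controls, but was not called. Glrx (-0.62 and -0.42) and Akr1c13 (-2.07 and -2.47) lay below both controls there, also without a call.

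In Mbd3 KD, 2 of the 60 passed the test, where 0.764% of all genes did. Here the count fell to 0 without replicate 1 of EGFP KD or of Mbd3 KD, to 0 without all 4 arrays labelled Tet1 KD and Mbd2 KD, and to 1 without any other single array save the 2 labelled Mbd2 KD. Gpx2 rose there too, to 4.30 and 4.38 (1.41, SE 0.19, limma adjusted p = 0.0314), so it is the 1 listed gene called in both knockdowns, which share their control arrays; against Dnmt1 KD, where it stood at 3.48 and 3.60, the difference was 0.80 (adjusted p = 0.168). Akr1b8, an aldo-keto reductase, fell from 2.17 and 2.10 in EGFP KD to 1.21 and 1.37 in Mbd3 KD (-0.84, SE 0.09, adjusted p = 0.0167), and stood at 2.29 and 2.35 in Chd4 KD. Against Dnmt1 KD, 2 of the 60 passed the test in Mbd3 KD (0.66% of all genes did), both lower: Akr1b8 by -1.13 (adjusted p = 0.0096) and Akr1c13 by -1.88 (adjusted p = 0.0237). Akr1c13 was at -0.60 and -0.18 in Dnmt1 KD, above both controls.

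Between Chd4 KD and Mbd3 KD, 4 of the 60 passed the test, where 1.45% of all genes did. Glrx (1.28, limma adjusted p = 0.0053), Akr1b8 (1.03, adjusted p = 0.00413) and Akr1c13 (2.32, adjusted p = 0.0053) were higher in Chd4 KD, and Gsta4 (-0.90, adjusted p = 0.0462) was lower. None of the 60 was called in Dnmt1 KD, or in Tet1 KD or Mbd2 KD as labelled, where 0% of all genes were called. Limma gave 7, 2 and 0 of the 60 an unadjusted p under 0.05. The shares of all genes at that level were 4.73%, 2.85% and 2.08%.

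No gene was called among the regulators of Nrf2 (10 tested), the enzymes of NADPH supply (6), iron and haem (6), the exporters and others (7) or the other carbonyl reductases (5) in Chd4 KD or Mbd3 KD. The shares of all genes called were 3.2% and 0.764%, so few calls would be met in groups of this size. Many of the brightest listed genes were at the scanner's ceiling, so that no difference is given for them: Taldo1 and Tkt of the pentose phosphate pathway, the ferritin chains Fth1 and Ftl1, the superoxide dismutase Sod1, the peroxiredoxin Prdx1 and the aldo-keto reductase Akr1b3 were saturated on all 12 arrays. Sod2, Prdx6 and Rbx1, the last of the ubiquitin ligase that Keap1 serves, were saturated on 9, 4 and 2 arrays. Among those with no saturated array, the log2 difference in Chd4 KD was -0.49 (SE 0.20, limma adjusted p = 0.371) for Mafg, a small Maf partner of Nrf2, and -0.20 for Gstp1, a glutathione S-transferase. The carbonyl reductases Cbr4 and Dhrs4 differed by -0.52 (SE 0.16, adjusted p = 0.17) and -0.51 (SE 0.34, adjusted p = 0.703). Keap1, named here after its values were seen because it is the main brake on Nrf2, gave -0.01 and -0.30 in EGFP KD and -0.67 and -1.06 in Chd4 KD (-0.71, SE 0.32, adjusted p = 0.43).

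**Figure D4:**
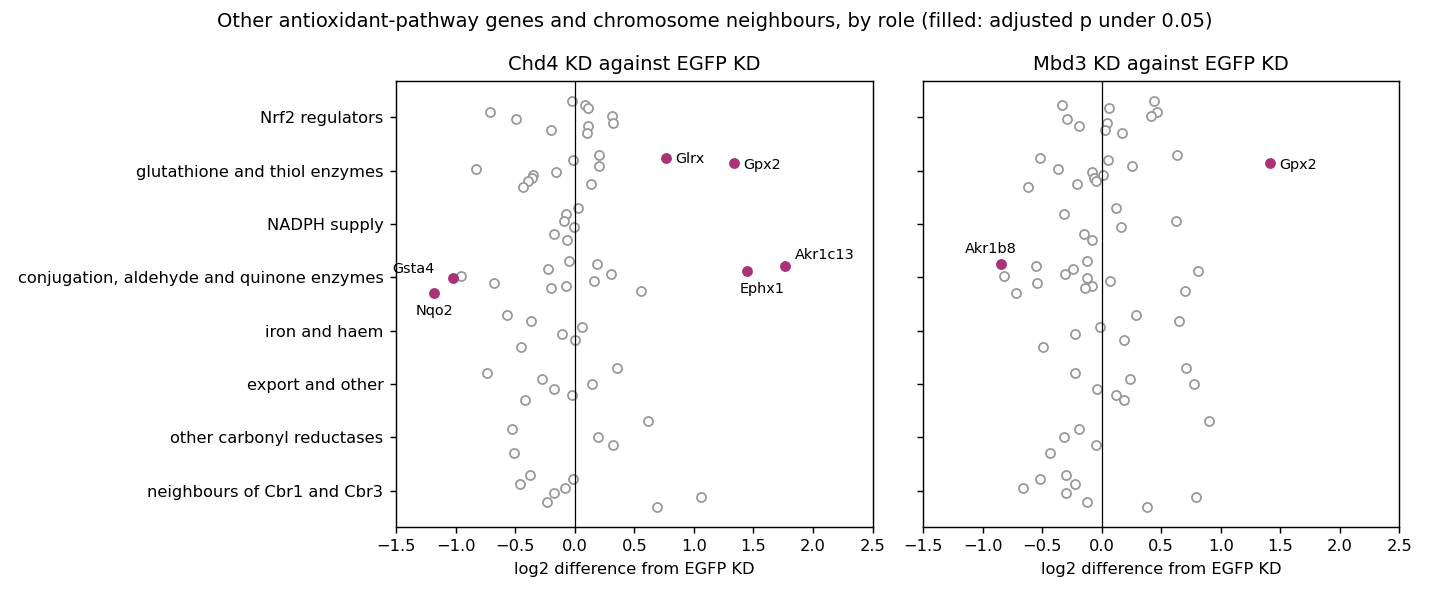
Log2 difference from EGFP KD (x axes) of the 60 other pathway genes and 8 genes near Cbr3, grouped by role (y axis), in Chd4 KD and Mbd3 KD, with filled points for an adjusted p under 0.05. In Chd4 KD, Glrx, Gpx2, Ephx1 and Akr1c13 lie to the right and Gsta4 and Nqo2 to the left; in Mbd3 KD, Gpx2 lies to the right and Akr1b8 to the left. Genes with saturated probes, such as Fth1 and Prdx1, are plotted at the values the scanner gave.

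The 8 genes tested from the same stretch of chromosome 16 were Setd4, Morc3, Chaf1b, Cldn14, Dop1b, Sim2, Hlcs and Runx1. None was called in any knockdown, where 3.2% of all genes were called in Chd4 KD and 0.764% in Mbd3 KD. At an unadjusted limma p under 0.05 there were 1 of 8 in Chd4 KD and 0 of 8 in Mbd3 KD. Over all genes those shares were 12.8% and 9.67%, so 8 genes are too few to show that the stretch was unaffected. Setd4, which RefSeq places next to Cbr1, and Chaf1b, a chromatin assembly subunit, were named for their high EGFP KD signal. Setd4 differed by -0.23 (Chd4 KD) and -0.12 (Mbd3 KD), and Chaf1b by -0.38 and -0.30. Others moved more: Dop1b gave 0.60 and 0.05 in EGFP KD and -0.10 and -0.16 in Chd4 KD. Runx1, near the bottom of the scale, gave -4.86 and -4.14 in EGFP KD and -3.14 and -3.74 in Chd4 KD. The median difference of the 8 genes was -0.13 in Chd4 KD and -0.26 in Mbd3 KD.

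Of 15659 genes well above background on all 12 arrays, the 5 with a symbol whose levels were most like those of Cbr3 by Pearson correlation over the 12 arrays were Gbx2 (r = 0.987), Enkd1 (0.982), Abca1 (0.980), Tmub1 (0.976) and Adamts4 (0.976). These correlations are set by the drop in the same 4 arrays, those of Mbd3 KD and Chd4 KD. Gbx2, a homeobox gene of the ES cell network, differed by -2.66 under Chd4 KD and by -1.55 under Mbd3 KD, and Abca1, a cholesterol exporter, by -2.16 and -1.20. Neither passed the test in Mbd3 KD (limma adjusted p = 0.0549 for Gbx2 and 0.0705 for Abca1), and both were picked for these same drops. Of the 15659 genes, Nqo1 (r = 0.72) ranked 1066th, Gclm 1580th, Srxn1 2006th, Nfe2l2 2115th and Cbr1 (r = 0.50) 2573rd. Txnrd1 was 3630th, Hmox1 3646th, Gsr 5207th and Gclc (r = 0.04) 7728th. All of these correlations were above 0. The order uses the Chd4 KD values that chose Cbr3 and is a description only.

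**Figure D5:**
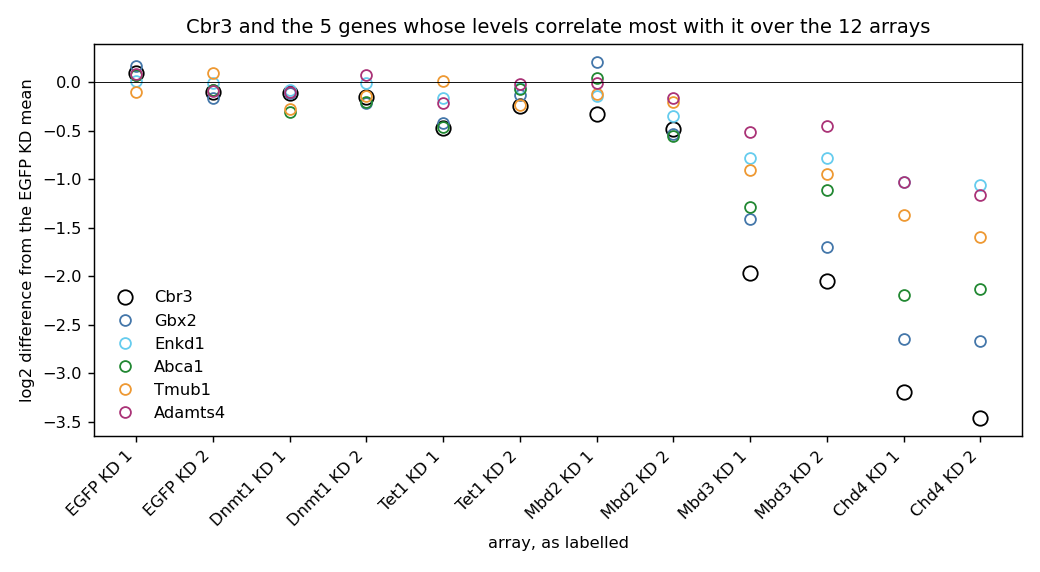
Log2 difference from the EGFP KD mean (y axis) of Cbr3 and the 5 genes most correlated with it on each of the 12 arrays as labelled (x axis). All 6 genes are lowest on the Chd4 KD arrays and next lowest on the Mbd3 KD arrays, where Cbr3 lies at -1.97 and -2.05.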

How the data were processed

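Cy3-labelled RNA of 12 E14 ES cell samples was hybridised, 1 sample per array, to Agilent 4X44K mouse arrays. Per the file headers and labels, Agilent Feature Extraction 10.7.1.1 was used, and the authors deposited its processed intensity for each spot, which that software corrects for background. They also deposited log2 values against EGFP KD for 12459 spots, on a compressed scale, in a table named as quantile-normalized with no further detail; these served only as an alternative, tested against 0, which leaves out the control's own spread.

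Groups came from the sample titles. The study's methods call the samples of a group biological replicates; how the 2 were kept separate is not given in the sources used here. After removal of 1377 control spots (43020 others) and outliers, intensities were divided by the array's 75th percentile (1784 to 2452), set to at least 0.0344 (log2 -4.86) and log2-transformed, and spots of a probe were averaged (39429 probes). A probe was kept if some group had it well above background on each of its arrays, and the brightest probe represented a gene. The share of probes well above background was 76.9% to 95.2% per array, and precision is limited by having 2 arrays a group.

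Groups were compared with lmFit and eBayes in limma 3.58.1 (R 4.3.3) over all 12 arrays at an adjusted p under 0.05, with code checked on simulated data. Alternatives covered scaling, background correction (normexp, offset 50, on the median signal), filters, probes, slide and replicate blocks, variance settings and left-out arrays. Genes named were the 10 members, the 5 targeted genes, listed genes called in a knockdown with at most 2 others per role by EGFP KD signal, and the 5 genes most correlated with Cbr3. The members and lists were chosen with earlier results of these data known. The comparison of Mbd3 KD with Dnmt1 KD, within-slide differences and the fit without arrays labelled Tet1 KD or Mbd2 KD were added after seeing the data. Slc7a11 and Ugt1a6a did not pass the filter and Gsta1 matched no probe. Gene order and promoters came from RefSeq on GRCm38.p6 by symbol, read with Python 3.11.15; the array design used mm9, so no gene coordinates were set beside it.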

Additional observations from a re-analysis of the deposited data

Results flagged for a closer look

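The following were flagged because the effects of Chd4 KD and Mbd3 KD differed from each other in the limma test of that difference (Chd4 KD minus Mbd3 KD, log2). Nqo1 differed by -1.06, with -1.08 in Chd4 KD and -0.02 in Mbd3 KD against EGFP KD. Glrx differed by 1.28 and Akr1c13 by 2.32, both above the controls in Chd4 KD and below them in Mbd3 KD. Akr1b8 differed by 1.03 and Gsta4 by -0.90. With 2 arrays in each group, no array could be tested for standing apart from its group.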

How the results depend on the processing

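With 2 arrays a group, calls depended on the settings more than values did. Of the 9 members other than Cbr3, 1 was called in Chd4 KD and 1 in Chd4 KD against Mbd3 KD. Of all 10 members, 1 was called in Mbd3 KD and 1 in Mbd3 KD against Dnmt1 KD, which was Cbr3 in both. Each of these counts became 0 after normexp background correction and 0 with only the 4 arrays compared. Without the arrays labelled Tet1 KD and Mbd2 KD it was 0 in Mbd3 KD, 0 for Chd4 KD against Mbd3 KD and 0 for Mbd3 KD against Dnmt1 KD. Leaving out each array in turn gave 0 to 1 in Chd4 KD (0 without either EGFP KD or either Chd4 KD array), 1 in Mbd3 KD and 0 to 1 for Chd4 KD against Mbd3 KD. The slide as a random block gave 2 for the last of these, adding Gsr (adjusted p = 0.0445). The authors' table held 7 of the 10 members, without Cbr1, Gclm and Txnrd1. Besides Cbr3 it called 3 members under Chd4 KD and 2 for Chd4 KD against Mbd3 KD. With Cbr3 counted it called 4 under Mbd3 KD and 1 under Dnmt1 KD. Among the genes of its 12459 spots it called 4213 under Chd4 KD, 3412 under Mbd3 KD, 1066 under Dnmt1 KD and 1222 for Chd4 KD against Mbd3 KD. After normexp, Nqo1 differed by -0.80 in Chd4 KD (adjusted p = 0.143) and Cbr3 by -1.60 in Mbd3 KD (adjusted p = 0.127), while the median of all genes shifted by -0.36 in both. Cbr1 in Chd4 KD turned to 0.0703 after normexp and 0.12 after quantile normalization, and ranged from -0.16 to 0.0743 with each array left out, above 0 without EGFP KD replicate 1. Of the other pathway genes, the 6 called in Chd4 KD became 2 after normexp, 11 with the slide as a random block, 0 with only the 4 arrays, 21 in the authors' table and 1 to 6 with an array left out. The 2 in Mbd3 KD became 0 after normexp, with only the 4 arrays and without the arrays labelled Tet1 KD and Mbd2 KD, 1 after quantile normalization, with the filter on all arrays and with array weights, 7 with the slide as a random block, 15 in the authors' table and 0 to 2 with an array left out. Over all genes, the 954 called in Chd4 KD became 64 after normexp, 2009 with the slide as a random block, 0 with only the 4 arrays, 509 without the arrays labelled Tet1 KD and Mbd2 KD, 4213 in the authors' table and 322 to 859 with an array left out. The 228 in Mbd3 KD became 2, 635, 0, 0, 3412 and 28 to 123 under the same settings, and 133 after quantile normalization, 93 with the filter on all arrays, 57 with the slide as a fixed block, 98 with array weights and 65 with a trended, robust prior. Under the other settings run, both counts stayed within 1.5 times. The cause of these changes was not tested. The replicate numbers were not taken to pair the samples, since correlations of same-numbered deviations ran from -0.042 to 0.767 (median 0.384) and not all were above 0.1, although replicates 1 and 2 of Dnmt1 KD, Mbd3 KD and Mbd2 KD lay on slides 1 and 3; with a replicate block the member counts stayed at 1 in Chd4 KD and 1 in Mbd3 KD, with Nqo1 at an adjusted p of 0.0116, and 1289 and 248 genes were called.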
